A study of Homo sapiens with 8 samples.

Results

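NYNRIN and 4 human genes whose proteins carry a related NYN ribonuclease domain, KHNYN, N4BP1, ZC3H12A and ZC3H12C, were followed through an RNA-seq study in which NYNRIN itself was knocked down. The 5 genes were taken by symbol, with earlier results of these data known, and all 5 were found in both deposited tables, among 13068 genes listed in both. The question was whether relatives of the silenced gene, among them KHNYN, its neighbour on chromosome 14, changed with it. KHNYN, N4BP1, ZC3H12A and ZC3H12C did not pass the main test in any comparison. KHNYN did pass in the second table when a control library listed in whole numbers was included, and more of all genes passed there too. NYNRIN fell to 57.9% of the control level in the first table and to 27.4% in the second. It passed within each table, but not in the main test with 1 effect fitted to both.

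Cells labelled KG-1a, an established line from an acute myeloid leukaemia, and described in the labels as bone marrow leukaemia stem cells, received a lentivirus with a control short hairpin RNA (shCTL, genotype labelled WT) or with a hairpin against NYNRIN (shNYNRIN). The cells were isolated by FACS and their mRNA was made into libraries with the SMART-Seq v4 kit. Each group had 4 libraries. Replicates 1 and 2 of each group stand in the first deposited table, called set 1 here, and replicates 3 and 4 in the second, called set 2. The sources used here name no time after transduction and no hairpin sequence, and do not say whether the replicates were separate cultures. The p-values therefore rest on how much these particular libraries differ, and that spread may be only technical.

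The values are FPKM, a fragment count scaled by transcript length and by the fragments mapped in a library, and can be compared between genes within a library. The 7 libraries with decimals summed to between 308998 and 313691 FPKM. The column of shCTL replicate 3 holds whole numbers and was kept out of the tests, which leaves 1 control library in set 2. Of the 7 markers of the KG-1a line, 4 were well expressed, with PTPRC, the pan-leukocyte phosphatase CD45, lowest at 22 to 30.7 FPKM and SPN, MYB and GATA2 higher in every library. CD34, the surface antigen that defines the line's immature phenotype, was between 0.680 and 1.79 FPKM, CD7 was at most 0.116 FPKM in set 2 and FLT3 was not listed. All 5 erythroid markers were at 1 FPKM or more in every library, and their summed FPKM was 122 to 141. T cell and stromal markers summed to at most 0.294 FPKM. Monocyte and macrophage markers summed to 4 to 6.92 FPKM, epithelial markers to 2 to 3.78 FPKM and B cell markers to 1 to 1.97 FPKM. In bulk RNA, fewer cells that express a gene and less RNA per cell cannot be told apart.

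The NYN domain is a metal-dependent nuclease fold of the PIN superfamily that cuts single-stranded RNA. ZC3H12A, or Regnase-1, and ZC3H12C, or Regnase-3, pair the domain with a CCCH zinc finger and destroy mRNAs of cytokines and other immune genes. KHNYN acts with the zinc finger antiviral protein ZAP against CpG-rich viral RNA, N4BP1 restrains NF-κB signalling and viral RNA and is cut by the protease MALT1, and NYNRIN joins the nuclease domain to a part derived from a retroviral integrase.

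The coding sequences show how close the 5 genes are. In GENCODE 29 on GRCh38, NYNRIN lies at chr14:24398786-24419288 on the plus strand and KHNYN starts 9997 bases after its end, at chr14:24429286-24441834 on the same strand. N4BP1 is at chr16:48538726-48620148 on the minus strand, ZC3H12A at chr1:37474552-37484379 on the plus strand, and ZC3H12C at chr11:110093361-110171841 on the plus strand. The NYNRIN protein has 1898 residues, KHNYN 678, N4BP1 896, ZC3H12A 599 and ZC3H12C 884. In local alignments NYNRIN shared 315 of 639 aligned residues (49.3%) with KHNYN and 246 of 751 (32.8%) with N4BP1. Its match to ZC3H12A covered only NYNRIN residues 786 to 951, with 82 of 166 residues identical (49.4%), and the match to ZC3H12C covered residues 790 to 946, with 78 of 157 identical (49.7%).

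The most conserved window of 15 codons within that stretch shows the family's shared core and how far the bases have diverged. Capitals mark the 12 codons that encode the same residue in all 5 genes. Each window is read 5′ to 3′ along the coding strand and lies in 1 coding exon. NYNRIN's is at chr14:24413347-24413391, KHNYN's at chr14:24436419-24436463, N4BP1's at chr16:48546179-48546223, ZC3H12A's at chr1:37482435-37482479 and ZC3H12C's at chr11:110163274-110163318.
NYNRIN: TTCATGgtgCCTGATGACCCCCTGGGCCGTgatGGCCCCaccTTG
KHNYN: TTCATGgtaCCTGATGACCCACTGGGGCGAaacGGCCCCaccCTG
N4BP1: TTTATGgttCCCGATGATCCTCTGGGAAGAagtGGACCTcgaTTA
ZC3H12A: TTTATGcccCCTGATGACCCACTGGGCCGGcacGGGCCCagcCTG
ZC3H12C: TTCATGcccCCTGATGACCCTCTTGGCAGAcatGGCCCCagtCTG
Of the 45 bases, 38 were the same in NYNRIN and KHNYN, 34 in NYNRIN and either ZC3H12A or ZC3H12C, and 29 in NYNRIN and N4BP1.

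A second window, where the shared domain begins, contains the longest run of bases that NYNRIN and KHNYN have in common. It is spliced from a pair of exons in each gene, so it has no single genomic interval. It starts at residue 794 of NYNRIN, 439 of KHNYN, 619 of N4BP1, 137 of ZC3H12A and 248 of ZC3H12C, and capitals mark the 9 of 15 codons for the same residue in all 5.
NYNRIN: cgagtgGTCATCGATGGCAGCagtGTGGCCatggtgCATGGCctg
KHNYN: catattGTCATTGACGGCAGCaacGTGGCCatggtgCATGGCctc
N4BP1: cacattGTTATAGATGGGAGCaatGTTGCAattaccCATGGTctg
ZC3H12A: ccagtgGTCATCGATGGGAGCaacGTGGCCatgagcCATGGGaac
ZC3H12C: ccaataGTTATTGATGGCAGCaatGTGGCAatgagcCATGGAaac
The exact run shared by the NYNRIN and KHNYN transcripts is 20 bases long and covers NYNRIN residues 802 to 808.
Shared by NYNRIN and KHNYN: GTGGCCATGGTGCATGGCCT
The longest exact run that NYNRIN shared with N4BP1 was 14 bases, with ZC3H12A 15 and with ZC3H12C 13. Of the 7837 words of 21 bases in the NYNRIN transcript, 5 (0.0638%) also occurred on the same strand of another gene's transcript, 1 of them in the relative ZC3H12D and 0 in KHNYN, N4BP1, ZC3H12A or ZC3H12C. The hairpin's own sequence was not analysed here, so which of these words it matches was not tested.

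NYNRIN, the targeted gene, checks the labels. It stood at 12.2 and 12.5 FPKM in the shCTL libraries of set 1 and at 6.98 and 7.30 FPKM in the shNYNRIN libraries. In set 2 it stood at 10.4 FPKM in shCTL replicate 4, at 10 in the whole-number column of shCTL replicate 3, and at 2.83 and 2.84 FPKM in shNYNRIN replicates 3 and 4. Every shNYNRIN library was below every shCTL library, and within each group the libraries of set 2 were below those of set 1.

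KHNYN, the closest relative by sequence, was at 9.63 and 9.35 FPKM in shCTL and 9.57 and 10.1 FPKM in shNYNRIN of set 1, so that the groups overlapped. In set 2 it was at 9.13 FPKM in shCTL replicate 4, listed at 8 in shCTL replicate 3, and at 10.3 and 10.4 FPKM in shNYNRIN. Both shNYNRIN libraries of set 2 were above both controls. Such a separation was not particular to KHNYN, since in set 1 the groups also separated for ZC3H12A and ZC3H12C. With so few libraries groups can separate by chance, and the share of all genes that separate in this way was not counted.

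N4BP1 was the lowest of the 4 relatives in every library. It stood at 4.81 and 4.32 FPKM in shCTL and 4.64 and 5.29 FPKM in shNYNRIN of set 1, and at 4.88 FPKM in shCTL replicate 4, 4 in shCTL replicate 3, and 4.89 and 5.39 FPKM in shNYNRIN of set 2. The groups overlapped in set 1, and in set 2 shNYNRIN replicate 3 was almost level with shCTL replicate 4.

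ZC3H12A, the founding Regnase, was at 7.67 and 7.71 FPKM in shCTL and 6.79 and 6.50 FPKM in shNYNRIN of set 1. In set 2 it was at 9.73 FPKM in shCTL replicate 4, 9 in shCTL replicate 3, and 8.30 and 10.02 FPKM in shNYNRIN, so that the shNYNRIN libraries lay on either side of the controls. ZC3H12A was higher in every library of set 2 than in any of set 1, but the tables were normalized separately and levels across them were not tested.

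ZC3H12C, the other Regnase of the 5, was the highest of the relatives throughout. It stood at 11.4 and 11.2 FPKM in shCTL and 12.1 and 12.6 FPKM in shNYNRIN of set 1. In set 2 it was at 10.5 FPKM in shCTL replicate 4, 11 in shCTL replicate 3, and 11.1 FPKM in both shNYNRIN libraries.

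**Figure D1:**
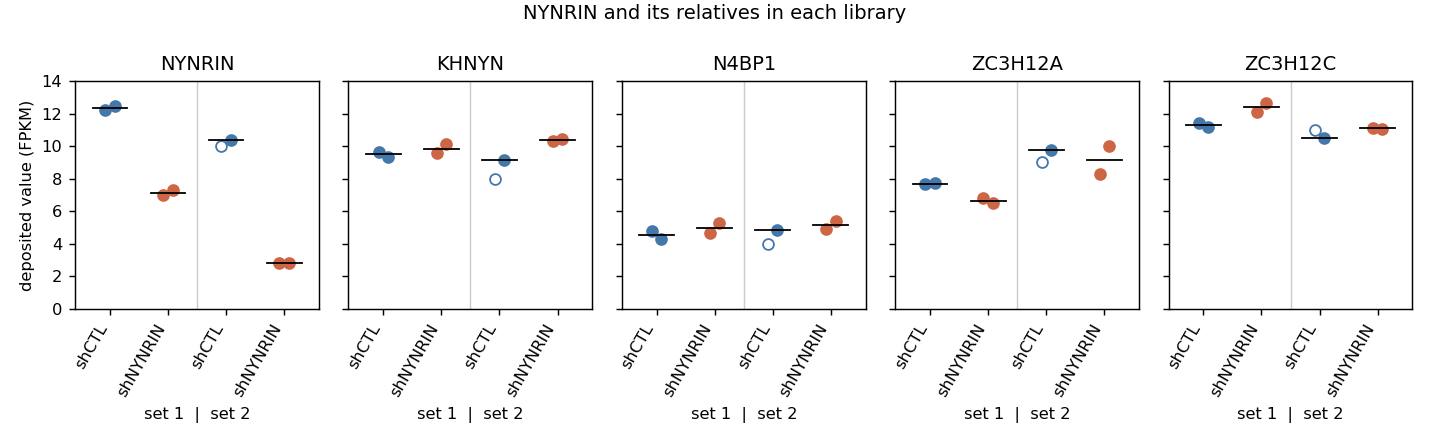
Deposited value (FPKM, vertical axis from 0) of each gene in the 8 libraries, by set and hairpin, with 1 point per library. Black bars are means of the FPKM libraries, and open circles mark the whole-number column of shCTL replicate 3, which enters no mean. NYNRIN drops from between 10 and 12.5 to between 2.83 and 7.30 FPKM, while KHNYN stays between 8 and 10.4, N4BP1 between 4 and 5.39, ZC3H12A between 6.50 and 10.02 and ZC3H12C between 10.5 and 12.6.

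NYNRIN moved down the order of the 5 genes. In both shCTL libraries of set 1 NYNRIN was first, ahead of ZC3H12C, and in shCTL replicate 4 it was second at 10.4 FPKM beside 10.5 FPKM for ZC3H12C. That gap was smaller than the difference between the shCTL replicates of set 1 for either gene, and larger than that between the shNYNRIN replicates of set 2. In both shNYNRIN libraries of set 1 it stood behind ZC3H12C and KHNYN, and ZC3H12A followed at 6.79 and 6.50 FPKM. It was last in both shNYNRIN libraries of set 2, below N4BP1. NYNRIN made up 26.7% and 27.7% of the family's summed FPKM in shCTL and 17.4% in each shNYNRIN library of set 1. In set 2 the share went from 23.2% in shCTL replicate 4 to 7.55% and 7.16%. The 4 relatives together summed to 33.5 and 32.5 FPKM in shCTL and 33.1 and 34.6 FPKM in shNYNRIN of set 1, which overlap. In set 2 they summed to 34.2 FPKM in shCTL replicate 4 and 34.7 and 36.9 FPKM in shNYNRIN.

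The relatives were first tested with 1 effect of the hairpin for both sets (limma on log2(FPKM + 1), Benjamini-Hochberg adjustment over 12939 genes, threshold 0.05). None of the 5 genes passed, against 0.317% of all genes tested (41 genes, and 2423 genes at an unadjusted p under 0.05). NYNRIN differed by -1.05 (SE 0.16, adjusted p = 0.0612), a value that averages unequal effects in the 2 sets. When each set had its own effect and these were averaged, an alternative added after seeing the data, NYNRIN differed by -1.14 (adjusted p = 0.000303, limma) and each relative still missed the threshold. KHNYN differed by 0.095 (SE 0.050), with a 95% interval of -1.51% to 15.9%, and its adjusted limma p was 0.357. For N4BP1 the log2 difference was 0.085, with an interval of -5.15% to 18.5%. ZC3H12A was 0.14 lower on that scale, with an interval of -19.2% to 1.31%, and ZC3H12C 0.10 higher, with an interval of 0.105% to 15.3% and an adjusted limma p of 0.262. These intervals, on the scale of FPKM + 1, bound the differences and do not show that the levels were equal.

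Within set 1, 1 of the 5 genes passed, NYNRIN, and 0 of the 4 relatives, against 15.9% of all genes tested. NYNRIN fell by 0.71 on the log2 scale (SE 0.052, limma adjusted p = 0.000984). Of the relatives, ZC3H12C had the smallest limma adjusted p, 0.110, with a log2 difference of 0.12 (SE 0.045) and an unadjusted p of 0.0288. ZC3H12A differed by -0.19 (SE 0.082, limma adjusted p = 0.172), KHNYN by 0.048 (limma adjusted p = 0.547) and N4BP1 by 0.099 (limma adjusted p = 0.467). The 4 relatives had a median of 0.074 and all genes a median of 0.026. In the authors' deposited table, which covers set 1 alone, NYNRIN has a log2 fold change of -0.82 and a q-value of 6.55e-41. The authors' deposited table marks ZC3H12A as down (-0.24, p-value 0.0213, q-value 0.0920) and ZC3H12C as up (0.10, p-value 0.0328, q-value 0.126), although neither q-value is under 0.05. It leaves KHNYN (0.025, q-value 0.847) and N4BP1 (0.092, q-value 0.549) unmarked. The mean normalized counts behind the authors' deposited values were 2891 for NYNRIN, 2543 for KHNYN, 1308 for N4BP1, 757 for ZC3H12A and 4377 for ZC3H12C, so that counting error alone would be 1.51% to 3.63% of a mean.

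Within set 2, where NYNRIN was lower, the result was again 1 of the 5 genes and 0 of the 4 relatives, against 20.3% of all genes tested. NYNRIN fell by 1.57 on the log2 scale (SE 0.064, limma adjusted p = 0.000119). KHNYN came closest among the relatives, with a difference of 0.17 (SE 0.060, unadjusted p = 0.0285, limma adjusted p = 0.101) and an interval of 1.64% to 23.9%. With shCTL replicate 3 included as deposited, where it was listed at 8, KHNYN passed at 0.25 (limma adjusted p = 0.0210), and with 0.5 added to that column it passed at 0.21 (limma adjusted p = 0.0177). More of all genes passed in these fits than in the main one. As deposited 2393 genes were higher and 1292 lower, and with 0.5 added 2165 and 1636. The median of all genes was 0.072 as deposited and 0.017 with 0.5 added. The call for KHNYN in set 2 thus turned on whether shCTL replicate 3, the set's other control library, was included. That column has no decimals, but KHNYN passed with it both as deposited and with 0.5 added. N4BP1 differed by 0.062, ZC3H12A by -0.084 and ZC3H12C by 0.074, with limma adjusted p between 0.396 and 0.729.

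The sets differed in how far NYNRIN fell, by -0.85 on the log2 scale (SE 0.082, limma adjusted p = 0.00132). Here 1 of the 5 genes passed, NYNRIN, and 0 of the 4 relatives, against 20.4% of all genes tested. KHNYN's effect was 0.12 higher in set 2 (limma adjusted p = 0.332), that of N4BP1 differed by -0.037, that of ZC3H12A by 0.10 and that of ZC3H12C by -0.049. The intervals of these differences in effect ran from -4.47% to 23.4% for KHNYN and from -21.9% to 21.7% for N4BP1. They ran from -13.4% to 32.9% for ZC3H12A and from -13.9% to 8.54% for ZC3H12C.

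**Figure D2:**
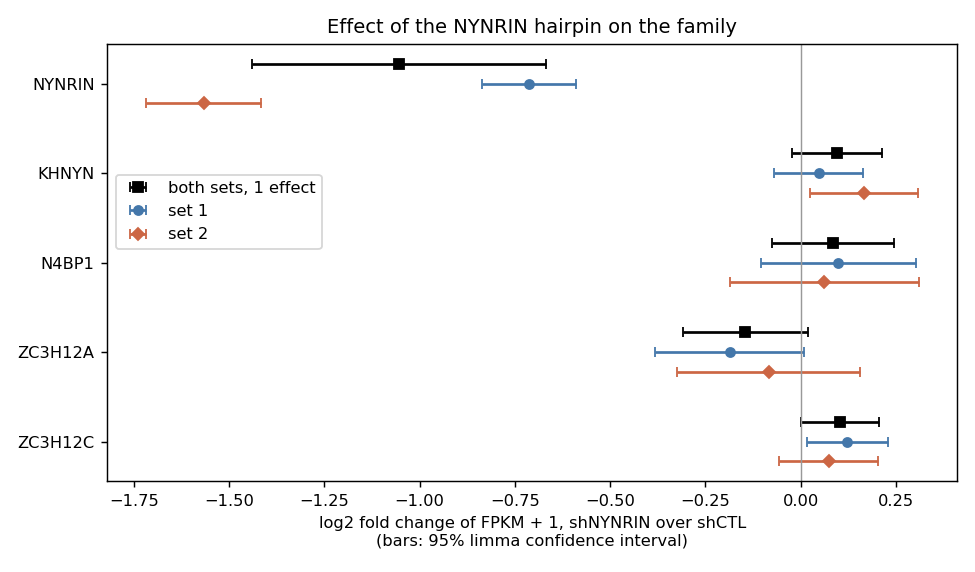
Log2 fold change of FPKM + 1 between shNYNRIN and shCTL (horizontal axis) for each gene, with 95% limma confidence intervals, for 1 effect over both sets (squares), set 1 (circles) and set 2 (diamonds). NYNRIN lies at -1.05, -0.71 and -1.57, and the relatives lie between -0.19 and 0.17.

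KHNYN also bears on the knockdown by its position, since it is the nearest gene of NYNRIN's own family and lies on the same strand. Part of its signal is shared: 2037 of its 8015 exonic bases (25.4%) overlap exons of SDR39U1 on the other strand, and 315 (3.93%) overlap exons of CBLN3. The library kit does not mark strand, so reads from the overlap cannot be told apart. SDR39U1, a short-chain dehydrogenase gene, was at 3.77 and 3.41 FPKM in shCTL and 3.97 and 2.61 FPKM in shNYNRIN of set 1, and at 3.39 FPKM in shCTL replicate 4 and 3.58 and 2.96 FPKM in shNYNRIN of set 2. Its groups overlapped in both sets and it did not pass in any comparison. CBLN3, a secreted cerebellin whose gene lies between NYNRIN and KHNYN and reaches into the latter, was at 0.0526 FPKM in shCTL replicate 4 and 0.118 and 0.0487 FPKM in shNYNRIN, and was not tested.

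Within 250 kb of NYNRIN, 39 other genes are annotated, 28 of them listed in the table of set 2 and 4 in both tables. Those 4 were KHNYN, SDR39U1, CTSG, which encodes the neutrophil protease cathepsin G, and the antisense gene ENSG00000258744. None of the 4 passed over both sets, in set 1, in set 2 or for the difference between sets (KHNYN under the alternatives given for it, and CTSG in set 1 without the mean-variance trend at a limma adjusted p of 0.0487, did). CTSG was at 1.21 and 1.05 FPKM in shCTL and 1.67 and 1.61 FPKM in shNYNRIN of set 1 (0.31, limma adjusted p = 0.104). In set 2 it was at 1.26 against 1.62 and 1.44 FPKM, and all these values are low. On the centromere side, none of the 25 protein-coding genes of the window reached 1 FPKM in set 2. The unbroken run of such genes goes further, over 28 genes and 260 kb up to EMC9, and 8 of these genes were not listed. The highest value in the run was 0.340 FPKM, for PSME2, and the nearest gene, NFATC4, was at most 0.291 FPKM. Genes that most growing cells use were among them: NEDD8, a ubiquitin-like modifier, was at most 0.122 FPKM, TINF2, a telomere protein, at most 0.146 FPKM, and NOP9, a ribosome assembly factor, at most 0.0840 FPKM. Of all 19969 annotated protein-coding genes, 52.3% were at 1 FPKM or more in set 2. The run is listed near 0 in shCTL replicate 4 as well as in shNYNRIN. In a table without read counts a value at or near 0 can come from a failed estimate or another step of the processing, so it is not read here as low expression. Neither the level of these genes nor an effect of the hairpin on that side could be measured, and the cause was not tested.

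**Figure D3:**
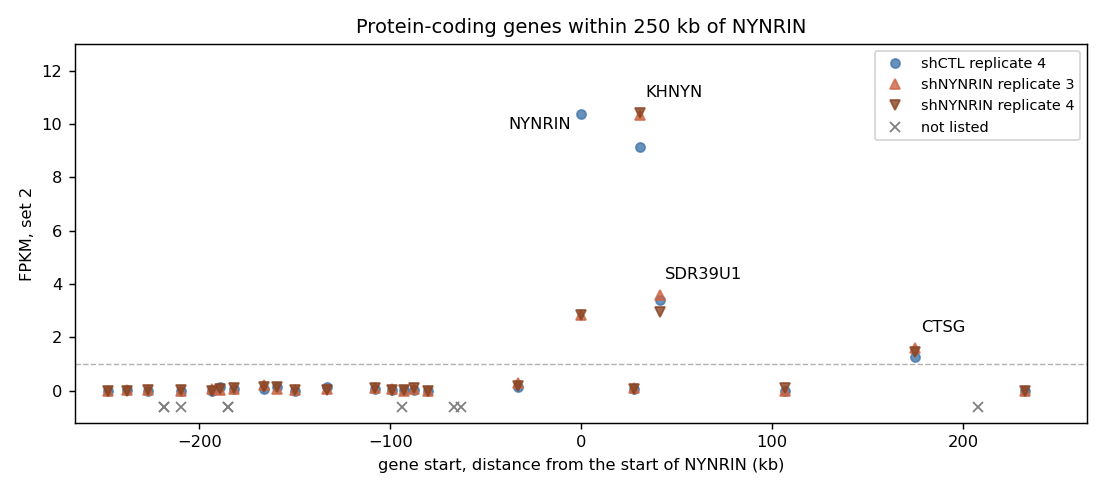
FPKM in set 2 (vertical axis) of protein-coding genes by the distance of their start from the start of NYNRIN (horizontal axis, kb), for shCTL replicate 4 and shNYNRIN replicates 3 and 4. The dashed line is 1 FPKM, and crosses drawn under 0 mark genes not listed in the table, which have no value. NYNRIN drops from 10.4 to 2.84 FPKM, KHNYN beside it stands at 9.13 in shCTL and at 10.3 and 10.4 in shNYNRIN, and no gene to the left reaches 1 FPKM.

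The other 3 NYN-domain genes sought, ZC3H12B, ZC3H12D and MARF1, were listed only in the table of set 2 and were not tested. Their values there are under 1 FPKM, and the limit given above for values near 0 holds for them too. ZC3H12B, or Regnase-2, was at 0.542 FPKM in shCTL replicate 4 and 0.572 and 0.714 FPKM in shNYNRIN. ZC3H12D, or Regnase-4, was at most 0.118 FPKM and MARF1, a ribonuclease of oocytes, at most 0.0674 FPKM. More distant genes for proteins with a PIN fold, many of which act in ribosome maturation or RNA decay and not all of which are active nucleases, were all 8 tested. In set 1, 1 of 8 passed (15.9% of all genes did): FCF1, a ribosomal RNA processing factor, rose by 0.18 (limma adjusted p = 0.0438). In set 2, 2 of 8 passed (20.3% of all genes did), both shares near the background. NOB1, the nuclease that finishes 18S ribosomal RNA, rose by 0.27 (limma adjusted p = 0.0183) and SMG5, a nonsense-mediated decay factor, fell by 0.14 on the log2 scale (limma adjusted p = 0.0407). NOB1 was at 29.2 and 31.4 FPKM in shCTL and 27.3 and 28.3 FPKM in shNYNRIN of set 1, and at 22.1 FPKM in shCTL replicate 4 and 27.1 and 26.5 FPKM in shNYNRIN of set 2. The call was lost in 11 of 17 alternatives for FCF1, in 4 of 15 for NOB1 and in 8 of 15 for SMG5. Over both sets 0 of the 8 passed (0.317% of all genes did), and SWT1 had the largest difference, 0.24. With the effect averaged over the sets FCF1 passed as higher and SMG5 as lower, in a fit that called far more of all genes (counts at the end).

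The partners through which the relatives act were followed as well. KHNYN works with ZAP (ZC3HAV1), its E3 ligase cofactor TRIM25 and the helicases DHX30 and DDX17, which gave 4 of 5 genes to test. In each set 2 of the 4 passed, where 15.9% and 20.3% of all genes did. DDX17 fell in both sets, by 0.21 (limma adjusted p = 0.0111) and by 0.36 on the log2 scale (limma adjusted p = 0.00215). It stood at 117 and 116 FPKM in shCTL and 97.6 and 103 FPKM in shNYNRIN of set 1. In set 2 it stood at 120 FPKM in shCTL replicate 4 and 93.0 and 92.7 FPKM in shNYNRIN. DHX30 rose by 0.19 in set 1 (limma adjusted p = 0.0203) and fell by 0.16 on the log2 scale in set 2 (limma adjusted p = 0.0474), and these effects differed by -0.35 (limma adjusted p = 0.00871). The call for DDX17 was lost in 4 of 17 alternatives in set 1 and in 0 of 15 in set 2, and that for DHX30 in 5 of 17 and 9 of 15. ZC3HAV1 differed by 0.18 in set 1 (limma adjusted p = 0.0528) and by 0.023 in set 2. It passed in set 1 under 3 alternatives, the 10 FPKM filter and shCTL replicate 3 as deposited or plus 0.5, with limma adjusted p of 0.0233, 0.0376 and 0.0343. TRIM25 did not pass in any comparison or alternative. Over both sets 0 of 4 passed (0.317% of all genes did), and the largest difference was that of DDX17, -0.27 (limma adjusted p = 0.0672), which passed in 5 alternatives. Among these was the fit without shCTL replicate 4, whose value is that of set 1.

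Of the 10 partners and regulators of Regnase-1, 1 rose and 2 fell in set 1, where 9.33% of all genes rose and 6.61% fell. UPF1, the helicase that Regnase-1 needs for decay, rose by 0.38 (limma adjusted p = 0.00391), from 36.2 and 37.8 FPKM to 46.9 and 50.2 FPKM. MALT1, the protease that cuts Regnase-1 and N4BP1, fell by 0.32 on the log2 scale (limma adjusted p = 0.0295) and IKBKB, an IκB kinase, by 0.23 (limma adjusted p = 0.0185). In set 2, 1 rose and 1 fell, a share like that of all genes, of which 20.3% passed. MALT1 fell again, by 0.35 on the log2 scale (limma adjusted p = 0.0349), from 4.65 FPKM in shCTL replicate 4 to 3.35 and 3.52 FPKM, and TANK, an adaptor that aids Regnase-1 against genotoxic NF-κB signalling, rose by 0.26 (limma adjusted p = 0.0496). UPF1 was at 42.5 FPKM in shCTL replicate 4 and 40.1 FPKM in both shNYNRIN libraries of set 2, and its effect in set 2 minus that in set 1 was -0.46 (limma adjusted p = 0.00511). Among the alternatives, UPF1 kept its call in set 1 in 17 of 17, MALT1 lost it in 7 of 16 in set 1 and 6 of 14 in set 2, IKBKB in 5 of 17 and TANK in 12 of 15. The medians of the 10 genes were -0.0027 in set 1 and -0.047 in set 2, where all genes had 0.026 and 0.018. Over both sets 0 of 10 passed (0.317% of all genes did), and MALT1 had the largest difference, -0.33 (limma adjusted p = 0.0712). With the effect averaged over the sets UPF1 and TANK passed as higher and MALT1 as lower, in a fit that called far more of all genes (counts at the end). The average for UPF1 joins 0.38 in set 1 with -0.081 in set 2, so it does not stand for a rise in both. None of the 4 partners of N4BP1 (NEDD4, ITCH, IKBKG and CASP8) passed over both sets, in either set or for their difference, and CASP8 had the largest difference over both sets, 0.12. With the 10 FPKM filter CASP8 passed in set 1 at 0.14 (limma adjusted p = 0.0412). Of the genes that share the integrase-derived part with NYNRIN, 1 of 2 could be tested, GIN1, and it differed by -0.021 over both sets.

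Messenger RNAs that Regnase-1 is known to cut were tested in 12 of 18 cases. Over both sets 0 of the 12 passed, against 0.317% of all genes (2423 of all genes had an unadjusted p under 0.05). With shCTL replicate 3 as deposited IL1B and TFRC passed (limma adjusted p = 0.0245 and 0.0405). With the effect averaged over the sets 4 passed as higher and 1 as lower, in a fit that called far more of all genes (counts at the end). Of those 4, PTGS2 (-0.22 in set 1, 1.10 in set 2) and NFKBIZ (-0.12 and 0.43) had opposite signs in the sets. In set 1, 1 rose and 4 fell, where 9.33% of all genes rose and 6.61% fell, with a median of -0.056 for the 12 and 0.026 for all genes. In set 2, 5 rose and 1 fell, where 11.6% of all genes rose and 8.71% fell, with a median of 0.18 for the 12 and 0.018 for all genes. PTGS2, the inducible cyclooxygenase, stood at 7.63 and 7.10 FPKM in shCTL and 6.25 and 6.10 FPKM in shNYNRIN of set 1. In set 2 it stood at 7.10 FPKM in shCTL replicate 4 and 16.0 and 16.7 FPKM in shNYNRIN, a rise of 1.10 on the log2 scale (SE 0.066, limma adjusted p = 0.000382). NFKBIZ, an inducible IκB protein, was at 26.7 and 26.2 against 24.3 and 24.2 FPKM in set 1, and at 25.3 against 33.5 and 35.0 FPKM in set 2, where it rose by 0.43 (limma adjusted p = 0.00169).

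GATA2 and TAL1, transcription factors of blood stem and progenitor cells, went opposite ways in the sets. GATA2 fell by 0.27 on the log2 scale in set 1 (limma adjusted p = 0.00191), from 204 and 208 FPKM to 172 and 171 FPKM, and rose by 0.17 in set 2 (limma adjusted p = 0.00880), from 217 FPKM to 244 FPKM in both libraries. TAL1 fell by 0.12 on the log2 scale in set 1 (limma adjusted p = 0.0273) and rose by 0.25 in set 2 (limma adjusted p = 0.00305). The cytokine IL1B rose in both sets, by 0.20 (limma adjusted p = 0.0161) and 0.19 (limma adjusted p = 0.0261), and the transferrin receptor TFRC fell in both, by 0.14 on the log2 scale (limma adjusted p = 0.0336) and by 0.35 (limma adjusted p = 0.00205). The change in effect between the sets passed the test for 5 of the 12 targets (20.4% of all genes did), 4 higher in set 2 and 1 lower. PTGS2 differed most, by 1.32 (limma adjusted p = 0.000445), then NFKBIZ by 0.55 and GATA2 by 0.44. PTGS2, NFKBIZ and TFRC kept their calls in set 2 in 15 of 15 alternatives and GATA2 kept its fall in set 1 in 17 of 17. In set 1 the call was lost in 11 of 17 for PTGS2, in 8 of 17 each for TFRC and TAL1 and in 4 of 17 for IL1B. The calls of set 2 were lost in 4 of 15 each for GATA2 and IL1B and in 1 of 15 for TAL1. The count of falls in set 1 was 1 under several alternatives, among them limma without shCTL replicate 1 or 2, without shNYNRIN replicate 1, 3 or 4, or without the mean-variance trend. The count of rises in set 2 was 3 without shNYNRIN replicate 3 or 4, and 2 with a replicate block by title number. With the level of ZC3H12A itself not past the threshold in either set, its part in these changes was not tested. The summed FPKM of the KG-1a markers moved in the same directions as GATA2. It went from 406 and 410 in shCTL to 334 and 338 in shNYNRIN of set 1. In set 2 it went from 384 in shCTL replicate 4 to 441 in each shNYNRIN library. GATA2 is itself among these markers and the largest part of the sum. PTPRC, SPN and MYB moved with the sum in both sets, and CD34 moved against it. CD34 was at 0.95 and 0.93 FPKM in shCTL and 1.42 and 1.20 FPKM in shNYNRIN of set 1. In set 2 CD34 was at 1.79 FPKM in shCTL replicate 4 and 0.76 and 0.68 FPKM in shNYNRIN. The part of the markers in these changes was not tested.

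**Figure D4:**
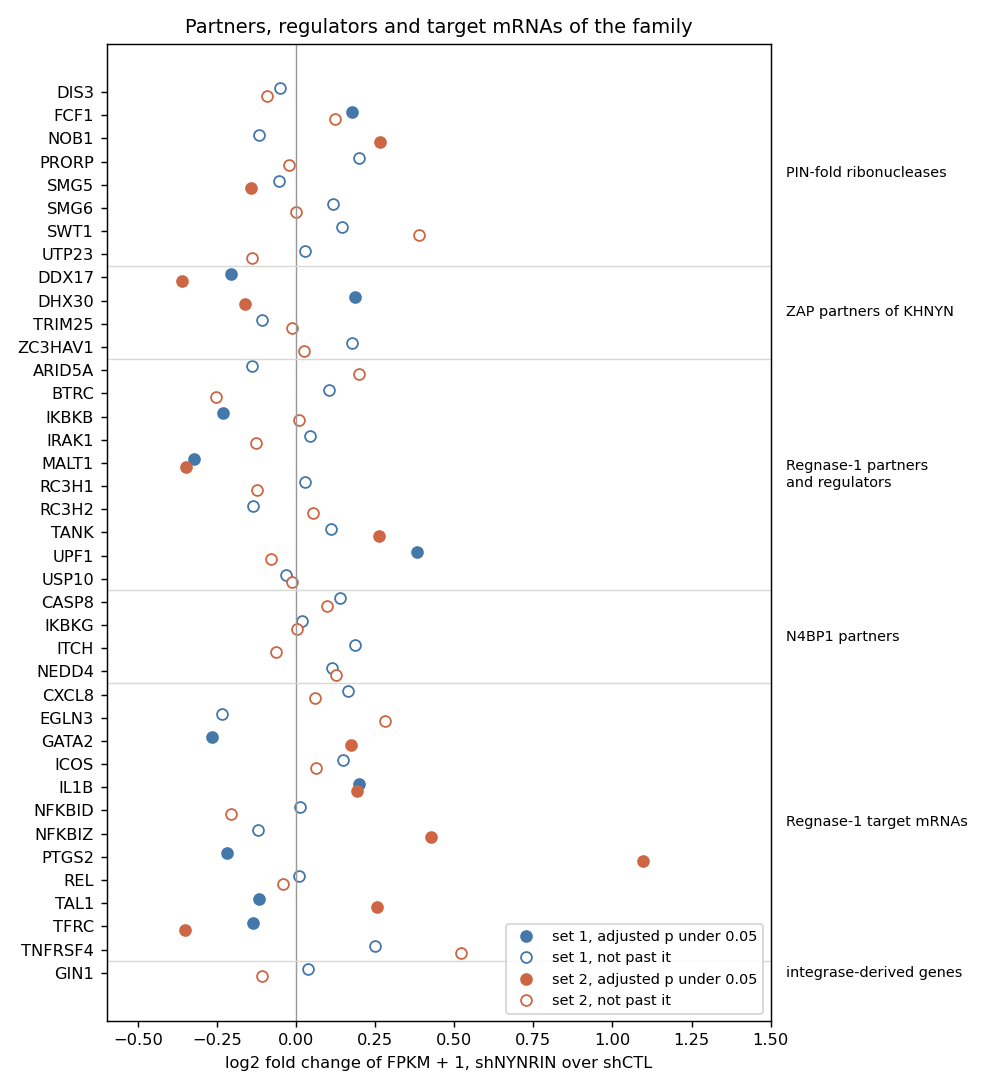
Log2 fold change of FPKM + 1 between shNYNRIN and shCTL (horizontal axis) for each tested gene of the lists named at the right, in set 1 (blue) and set 2 (orange). Filled points passed an adjusted limma p of 0.05. DDX17 and MALT1 are low in both sets, PTGS2 stands at -0.22 in set 1 and 1.10 in set 2, and GATA2, TAL1 and DHX30 have opposite signs.

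The genes whose level followed NYNRIN most closely were sought among 1007 genes with a mean of at least 5 FPKM and a log2 range of at least 0.5, by Pearson's r over the 7 libraries, which share hairpin, set and table. The highest r were those of B3GNT2, a glycosyltransferase (0.995), MCM3, a subunit of the replicative helicase (0.994), SLC9A3-AS1 (0.992), MXRA8 (0.989) and VASH1 (0.984). B3GNT2 was at 77.8, 74.7 and 72.4 FPKM in shCTL replicates 1, 2 and 4, at 64.8 and 63.3 FPKM in shNYNRIN of set 1 and at 47.3 and 48.5 FPKM in shNYNRIN of set 2. MCM3 was at 335 to 347 FPKM in shCTL, 299 and 290 FPKM in shNYNRIN of set 1 and 241 and 240.3 FPKM in set 2. The lowest r were those of ANXA6 (-0.979), LRRFIP2 (-0.977), F2RL2 (-0.977), MFN1 (-0.976) and WDR74 (-0.974). LRRFIP2 was at 12.7 to 13.3 FPKM in shCTL, 16.4 and 15.5 FPKM in shNYNRIN of set 1 and 19.8 FPKM in both of set 2. B3GNT2, MCM3 and LRRFIP2 each separated shCTL from shNYNRIN, and set 1 from set 2 within shNYNRIN. They were picked by r with NYNRIN over these same libraries, so this separation follows largely from the choice. Not every library follows the NYNRIN order: B3GNT2 was higher, and NYNRIN lower, in shCTL replicate 1 than in shCTL replicate 2.

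Among the relatives, KHNYN had an r of -0.850 with NYNRIN, N4BP1 -0.587, ZC3H12A -0.324 and ZC3H12C 0.0142, over the same 7 libraries. ZC3H12A and ZC3H12C had an r of -0.882 with each other, as ZC3H12A was higher and ZC3H12C lower in set 2. The genes most like KHNYN were NXF3 (0.958), STK17B (0.957) and LINC01366 (0.956), and those most like N4BP1 were RDH14 (0.924), MIR590 (0.904) and PRIMPOL (0.898). Those most like ZC3H12A were ENSG00000279348 (0.953), HERPUD1 (0.950) and CBR1 (0.915), and those most like ZC3H12C were KLHL18 (0.968), FGFR3 (0.966) and SLC30A1 (0.958). STK17B, a kinase of lymphoid cells, was at 6.91, 6.59 and 5.80 FPKM in shCTL replicates 1, 2 and 4. It was at 8.11 and 8.70 FPKM in shNYNRIN of set 1 and at 10.5 and 10.3 FPKM in shNYNRIN of set 2. It was thus higher in shNYNRIN in both sets, but it was picked by r with KHNYN over these same libraries.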

How the data were processed

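RNA-seq values of 8 libraries (4 shCTL, 4 shNYNRIN) were analysed, with groups and replicate numbers from the sample titles. The submitters' processing notes name Bowtie 0.12.9, Cufflinks 2.1.1 and HTSeq, with mm10 and hg38 in no stated role. The annotation, and whether strand was used, are not given in the sources here. In 7 libraries the deposited numbers were taken to be FPKM, judging by decimals and sums. The deposited column of shCTL replicate 3 holds whole numbers and is treated as a score: of 830 genes between 0.5 and 0.9 FPKM in libraries of its table, 763 (91.9%) were listed at 0 there. Its decimals thus appear to have been cut off and not rounded. For set 1 the authors also deposited a mean normalized count, treated as a signal. They deposited a log2 fold change and a p-value with its q-value for that set too, by a program the sources here do not name. Without a stated depth per library, FPKM values carry no counting interval.

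Log2(FPKM + 1) of genes with at least 1 FPKM in at least 2 libraries was tested with limma 3.58.1 (R 4.3.3) with a mean-variance trend. Tests were two-sided, p was adjusted over all 12939 genes by Benjamini-Hochberg, and the fit was checked on simulated data. All fold changes are of FPKM + 1, which understates those of low genes. For both sets together, group and set were additive terms (4 residual degrees of freedom), and effects per set and their difference came from the interaction model (3 residual degrees of freedom), with the 1 control library of set 2 assumed to vary like the others. Members and gene lists were chosen with earlier results of these data known, so counts over a list are descriptions. Named genes were the 5 members, at most 3 genes per list and comparison by lowest adjusted p, the gene with the largest difference where none passed, the expressed neighbours, and the genes most alike in pattern. Sequences and positions come from GENCODE 29 (GRCh38), with alignments in Biopython 1.88. Alternatives covered pseudocount, filter, scaling, variance trend, shCTL replicate 3, each library left out and replicate blocks.

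The spread between replicates of set 1, over the counting noise expected from the deposited mean counts, was 4 for shCTL and 6.35 for shNYNRIN, so none was merged. Same-numbered libraries, by the numbers in the library names of the labels, had correlated deviations from the group means over 5880 genes (r = 0.102, 0.141, 0.153 and 0.147). Each such pair spans both tables, so these values also hold the difference between the sets. Pairs across the sets with unlike library numbers had similar r, such as 0.180 (shCTL 1 with shNYNRIN 2) and 0.162 (shCTL 4 with shNYNRIN 3). Pairs within a set had negative r, from -0.174 to -0.121. The values therefore do not show a pairing by number. Every same-numbered pair was over 0.1, so a block by these numbers was fitted as an alternative.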

Additional observations from a re-analysis of the deposited data

Results flagged for a closer look

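The drop in NYNRIN differed between the sets by -0.85 on the log2 scale of FPKM + 1, set 2 minus set 1 (limma, adjusted p = 0.00132). It was lower in shNYNRIN in 4 of 4 libraries. None of the 4 relatives was marked by the same test of the difference.

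Among partners and targets, the effect of the hairpin differed between the sets, by the interaction term in limma, for 8 of 39 genes tested (20.5%). Higher in set 2 were PTGS2 (1.32), NFKBIZ (0.55), GATA2 (0.44), NOB1 (0.38) and TAL1 (0.37), and lower in set 2 were UPF1 (-0.46), DHX30 (-0.35) and TFRC (-0.22). Across all genes tested, 20.4% passed the same test, so the share among these genes is that of the background.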

How the results depend on the processing

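The 4 relatives gave 252 values under the alternatives: 241 kept their direction and their side of the threshold, 2 newly passed (KHNYN in set 2, below) and 9 changed sign, all with a limma adjusted p of 0.751 or higher. NYNRIN passed in 52 of 65. Over both sets the count of family genes past the threshold went from 0 to 1 (NYNRIN) with genes of at least 10 FPKM, with shCTL replicate 3 as deposited or plus 0.5, and with the effect averaged over the sets. It ranged from 0 to 1 over the libraries left out, with 1 without shCTL replicate 4 (-0.71, limma adjusted p = 0.00116). Without that library set 2 has no control, so this value is the effect in set 1 and not over both sets. In set 2 the count of family genes went from 1 to 2 (NYNRIN and KHNYN) with shCTL replicate 3 as deposited or plus 0.5. Calls over all genes rose there as well, to 2393 higher and 1292 lower as deposited and 2165 and 1636 plus 0.5. ZC3H12A in set 2 changed sign with the title-number block (0.039), and ranged from -0.21 to 0.039 over the libraries left out. The difference between sets for N4BP1 changed sign with shCTL replicate 3 as deposited (0.079) or plus 0.5 (0.011) and with the title-number block (0.021), and ranged from -0.12 to 0.042 over the libraries left out, where that of ZC3H12A ranged from -0.021 to 0.22. Of 485 values of the partner and target genes that passed, 366 still passed and 119 did not, and none changed sign. Newly past the threshold under at least 1 alternative were ZC3HAV1, RC3H2, CASP8 and NFKBIZ in set 1, SWT1, BTRC, NFKBID and TNFRSF4 in set 2, and IKBKB, RC3H2, BTRC, ARID5A and DDX17 for the difference between sets. Over both sets these were FCF1, SMG5, DDX17, MALT1, UPF1, TANK, TFRC, IL1B, PTGS2, NFKBIZ and TNFRSF4. DHX30, IKBKB, TAL1 and GATA2 newly passed over both sets only without shCTL replicate 4, where the value is that of set 1.

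With a replicate block by library-name number in place of the set term, NYNRIN differed by -1.35 (limma adjusted p = 0.197), KHNYN by 0.12, N4BP1 by 0.13, ZC3H12A by -0.025 and ZC3H12C by 0.068, and 0 genes passed of all tested (2188 at an unadjusted p under 0.05, limma). This block could not be fitted with an effect per set. The block by title number changed no call among the 5 genes. Without shCTL replicate 4 no effect in set 2 could be estimated, so values and counts over both sets are then those of set 1. Counts over all genes moved more: 41 over both sets became 88 with the 10 FPKM filter, 8 with quantile normalization, 0 without the trend, 356 or 452 with shCTL replicate 3, 2088 without shCTL replicate 4 and 2304 averaged over the sets. In set 1, 1207 genes rose and 855 fell, against 807 and 1173 with upper-quartile scaling and 925 and 965 with quantile normalization. Read depth per library is unknown, so the limit for low genes such as CBLN3 could not be given.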
